A study of Mus musculus with 24 samples.

Results

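Quadriceps muscle of 18-month-old corrected mice was compared with that of wild-type (WT) mice of the same age, 3 libraries against 3, out of 24 libraries in the series. The 6 libraries were chosen by their labels and count-table columns, with no measured value involved. The corrected mice carried delEx44, a deletion of exon 44 of Dmd on a C57BL/6 background. On postnatal day 4 they had received an intraperitoneal injection of 2 AAV9 vectors, ssAAV9-sgRNA at 2.5e14 vg/kg (vector genomes per kg) and ssAAV9-SpCas9 at 5e13 vg/kg. WT mice were C57BL/6, and an injection is described for delEx44 mice only, so vector and Cas9 exposure differed between the groups along with the Dmd allele. Levels in the 3 delEx44 libraries of the same age are given beside many of the results, not all. The comparison at a younger age was of 3 corrected and 3 WT libraries at 4 weeks. Those corrected mice had received 8e13 vg/kg of each vector on postnatal day 4, with a self-complementary guide vector. Dose and vector type thus differed from the 18-month mice along with age. All 18-month mice were sedentary. RNA was polyadenylated RNA of whole muscle, in which fewer cells of a type and less RNA per cell cannot be told apart. Fibre genes were abundant in all 6 libraries, with Ckm, the muscle creatine kinase, between 9918 and 13063 CPM (counts of a gene relative to the TMM-scaled library size).

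Dystrophin links the cytoskeleton of the muscle fibre to a complex of membrane proteins and through it to the matrix. Without it the membrane tears during contraction, fibres die and are rebuilt by satellite cells, and macrophages, fibroblasts and fat cells accumulate. Exon 44 lies at chrX:84022265-84022412 (GRCm38, plus strand), is 148 bases long and is exon 44 of 79 in the annotated transcript Dmd-203. Divided by 3 that length leaves a remainder of 1, and a transcript without the exon is out of frame. Cutting a neighbouring exon with Cas9 and a single guide RNA can restore the frame in those nuclei that are edited, through small insertions or deletions or through skipping of the cut exon. A treated muscle is therefore a mosaic of nuclei, and what remains different from WT is the subject here.

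The 3 corrected libraries were not alike. The root mean square log2 difference over all 14337 genes tested was 0.334 to 0.388 between WT libraries and 0.471 to 0.631 between corrected libraries. Corrected library 2 lay 0.407 to 0.439 from the WT libraries, library 1 lay 0.619 to 0.667 and library 3 lay 0.638 to 0.704. Genes over 1 log2 unit from the WT mean numbered 1208, 382 and 1304 in corrected libraries 1, 2 and 3. Counts assigned to genes ran from 23.1 to 31.3 M (mega-counts) over the 9 libraries, and from 27.1 to 28.6 M over the corrected ones. Xist had 1 to 7 counts and the Y-linked Ddx3y 4132 to 6727 counts in each of the 9, so the groups did not differ in sex by these genes.

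The distance to WT was read on genes that were ranked in a comparison of other animals. In delEx44 against WT at 4 weeks, the 200 higher and the 200 lower genes of smallest p were taken, and each 18-month library was placed between the mean of WT (0%) and the mean of delEx44 (100%) at 18 months. The ends of the scale thus come from the 18-month libraries themselves. The fit behind that p took its spread from 18 sedentary libraries, the 18-month ones included, so the choice of genes was not fully separate from them. Corrected libraries 1, 2 and 3 lay at 38.9%, 13% and 49.6%. WT libraries lay between -2.34% and 3.95%, and delEx44 libraries between 93.8% and 108%, so every corrected library lay outside both ranges. Genes that are higher in delEx44 were farther from WT, at 48.6%, 13.3% and 59.5%, than genes that are lower in it, at 20.3%, 12.3% and 30.6%. These positions are a description without a test, and 3 libraries against 3 cannot give an exact two-sided permutation p below 0.1.

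**Figure D1:**
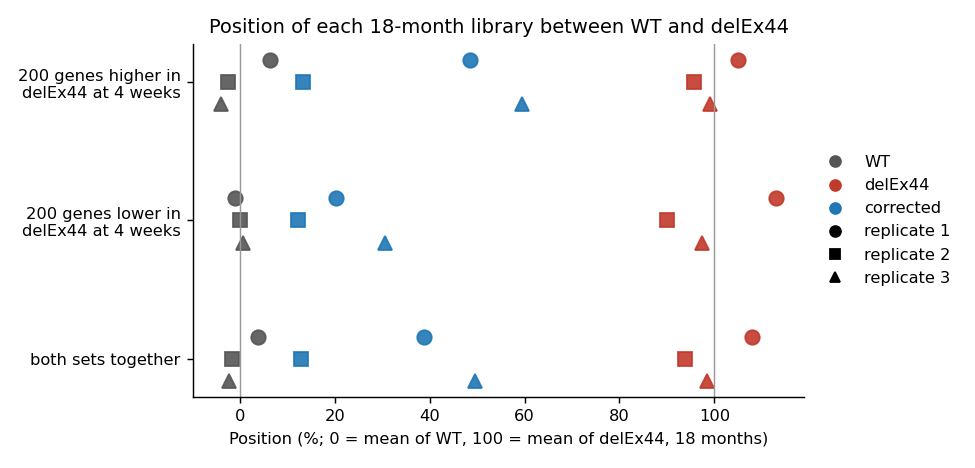
Position of each 18-month library (horizontal axis, %) on genes chosen at 4 weeks, with 0 at the WT mean and 100 at the delEx44 mean; colours mark the groups and shapes the replicates. Corrected library 2 sits at 13% for both sets together, and libraries 1 and 3 at 38.9% and 49.6%.

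Dmd (chrX:82948870-85206141, plus strand), the edited gene, was measured at 337, 350 and 425 CPM in WT and at 205, 304 and 195 CPM in corrected muscle. delEx44 libraries had 86.2, 86.7 and 84.2 CPM. All 3 corrected libraries were below WT and above delEx44, and library 2, the nearest to WT over all genes, had the highest Dmd of the 3. The difference from WT was -0.66 ± 0.16 log2 (SE) and did not pass the threshold (edgeR quasi-likelihood, Benjamini-Hochberg adjusted p = 0.0514). Without corrected library 2 it was -0.89 with an adjusted p of 0.000134. Library 2 had the highest Dmd of the corrected libraries, so leaving it out could only widen the difference. That value is therefore no support for a fall. The gene count does not tell edited from unedited transcripts.

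Genes of proteins that bind or replace dystrophin gave 1 call. Utrn encodes utrophin, the dystrophin relative that can stand in for it at the membrane. It was measured at 127, 138 and 134 CPM in corrected, 128, 121 and 128 CPM in WT and 164, 148 and 159 CPM in delEx44 muscle. Corrected and WT values overlapped, with a difference of 0.08 ± 0.06 log2 (adjusted p = 0.45). Dtna, encoding alpha-dystrobrevin of the dystrophin complex, rose by 0.39 ± 0.06 log2 (adjusted p = 0.0187), from 146, 150 and 151 CPM to 199, 188 and 200 CPM, above the delEx44 range of 158 to 179 CPM as well. Dtna was the 1 gene called among 21 tested of the complex, 4.76% of them and the same share as over all genes. The Dtna call was lost without WT replicate 1 (adjusted p = 0.0736), WT replicate 2 (0.0991) or corrected library 1 (0.0507). It was also lost with the 6 WT and corrected libraries alone (edgeR adjusted p = 0.0635).

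Across all genes, 683 of 14337 (4.76%) passed an adjusted p of 0.05 between corrected and WT muscle at 18 months. Of these 335 (2.34%) were higher and 348 (2.43%) lower in corrected muscle, and 117 and 48 of them changed by at least 1 log2 unit. For scale, delEx44 against WT called 7549 genes (52.7%; 28.8% higher and 23.8% lower in delEx44). Corrected against delEx44 called 5880 (41%; 19.6% higher and 21.4% lower in corrected muscle). These comparisons share libraries, so no overlap between them is drawn. In each of the 683 genes every corrected library, library 2 included, lay beyond every WT library. Groups that do not overlap were seen in 25% of all genes tested. The median distance of the 335 higher genes from the WT mean was 0.84, 0.53 and 0.76 log2 in libraries 1, 2 and 3, and that of the 348 lower genes was -0.58, -0.38 and -0.50.

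The number called depended on which libraries entered. Corrected library 2 was known to lie nearest WT, so leaving it out tends to enlarge the differences by that choice alone. Here and below, counts and calls without library 2 describe this dependence and are no separate support for a result. Without corrected library 2, 2859 of 14566 genes (19.6%) passed, 1647 (11.3%) higher and 1212 (8.32%) lower, and 681 of the 683 were among them in the same direction. Without WT replicates 1, 2 and 3 the counts were 49, 9 and 138, without corrected library 1 it was 128, and without library 3 it was 441. The main fit takes the spread from the delEx44 libraries too, which were 0.247 to 0.320 log2 apart. A fit of the 6 WT and corrected libraries alone called 16 genes, all among the 683.

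The 12 largest rises were taken among genes with a mean of at least 5 CPM in corrected or WT muscle. They lay in metal-binding proteins, leukocyte genes, an embryonic actin and the sarcomeric protein gene Igfn1. Called genes below that level, among them Chrng (2.69 log2), Timp1 (2.65) and Oasl1 (2.32), rose as much. Mt2 and Mt1 encode metallothioneins, small proteins that bind zinc and copper and respond to metals, glucocorticoids and inflammation. Mt2 was at 178, 84.5 and 38.0 CPM in corrected libraries 1, 2 and 3 and at 8.29, 8.87 and 8.62 CPM in WT. That is a rise of 3.54 ± 0.54 log2 (adjusted p = 0.0242), and Mt1 rose by 2.7 ± 0.55 (adjusted p = 0.0439). Library 1 was the highest and library 3 the lowest for both genes. delEx44 libraries had 77.1 to 89.1 CPM of Mt2, inside the corrected range. Reads of Mt1 and Mt2, and of Ms4a6c and Ms4a6d, may be shared between near-identical copies, so the split within each pair is uncertain.

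The upstream sequences of the metallothionein pair are shown because both genes rose together. Capitals mark the core of the metal response element, searched as TGCACNC and as TGCGCNC on both strands in the 250 bases before the RefSeq start (GRCm38.p6). The windows are chr8:94172368-94172617 for Mt2 and chr8:94178839-94179088 for Mt1, both on the plus strand, written 5′ to 3′.
Mt2: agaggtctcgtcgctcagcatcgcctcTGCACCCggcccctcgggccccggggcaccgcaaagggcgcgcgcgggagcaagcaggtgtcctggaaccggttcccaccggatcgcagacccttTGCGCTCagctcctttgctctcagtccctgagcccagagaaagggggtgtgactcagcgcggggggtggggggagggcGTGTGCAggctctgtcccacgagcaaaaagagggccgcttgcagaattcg
Mt1: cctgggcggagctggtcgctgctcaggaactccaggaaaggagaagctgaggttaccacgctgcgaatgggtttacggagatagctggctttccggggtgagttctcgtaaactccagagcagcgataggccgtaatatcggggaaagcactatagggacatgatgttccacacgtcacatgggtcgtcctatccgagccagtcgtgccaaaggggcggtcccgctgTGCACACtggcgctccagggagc
Mt2 held 3 matches and Mt1 held 1. These counts hold for the windows shown and not for all sequence around either start. The annotations place the start of Mt1 differently, and its window runs past the GENCODE start at chr8:94179082. Either core occurred in 21.4% of 32817 promoters of the same length, and a match is a description of letters.

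Genes of leukocytes were among the other large rises at that level. Ms4a6c, a membrane protein of myeloid cells, was at 31.8, 12.9 and 58.7 CPM in corrected libraries 1, 2 and 3 against 6.11 to 6.77 CPM in WT (2.43 ± 0.50 log2, adjusted p = 0.0439). Ms4a6d (2.40), the acid-sensing receptor gene Gpr65 (2.3), the serine protease inhibitor Serpinb1a (1.97) and the chemokines Ccl9 (1.91) and Ccl6 (1.85) also had library 2 nearest WT. Lcn2, encoding the iron-siderophore binder lipocalin 2, differed in this: it was at 6.64, 6.48 and 4.60 CPM against 1.36 to 1.85 CPM in WT and 1.80 to 2.83 CPM in delEx44 (1.91 ± 0.22, adjusted p = 0.00775). Igfn1, a sarcomeric protein of the Z disc, rose from between 38.5 and 48.2 CPM to 214, 166 and 95.5 CPM (1.83 ± 0.27, adjusted p = 0.0216). The remaining 2 of the 12, Actc1 and Amica1, are described further on.

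The 12 largest falls at that level were a mixed group. Exph5, encoding a partner of Rab27 in vesicle transport, was at 1.12, 2.16 and 0.714 CPM against 4.5 to 5.68 CPM in WT (-1.97 ± 0.41, adjusted p = 0.0355). Polq, the DNA repair polymerase theta, was at 2.12, 3.28 and 1.78 CPM against 5.38 to 6.96 CPM (-1.39 ± 0.24, adjusted p = 0.0215). Frzb, a secreted Wnt antagonist, was at 3.40, 6.64 and 3.53 CPM against 11.4 to 15.4 CPM (-1.56 ± 0.25, adjusted p = 0.019). In these 3 genes delEx44 was low too, at 0.0639 to 0.419, 0.863 to 1.41 and 3.42 to 4.64 CPM. In another 4 the delEx44 libraries were not below the corrected ones. Adig (adipogenin, of fat cells) fell by 1.79, Tshr (the thyrotropin receptor) by 1.49, Tenm4 (a teneurin adhesion protein) by 1.40 and Plin1 (perilipin 1, which coats the lipid droplet of fat cells) by 1.37 log2, and all 3 corrected libraries lay below all 6 others in each. Ces1d (-1.41), Paqr9 (-1.29), Tiam1 (-1.22), Nhs (-1.20) and Grtp1 (-1.18) were the other falls.

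Most of these 24 calls were lost without any 1 of the WT libraries. Without WT replicate 2, 22 of the 24 lost the call (adjusted p up to 0.163), without WT replicate 1, 21 did (up to 0.13) and without WT replicate 3, 19 did (up to 0.116). Without corrected library 1, 14 did (up to 0.134), and without library 3, 8 did (up to 0.12). Without corrected library 2 all 24 passed.

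**Figure D2:**
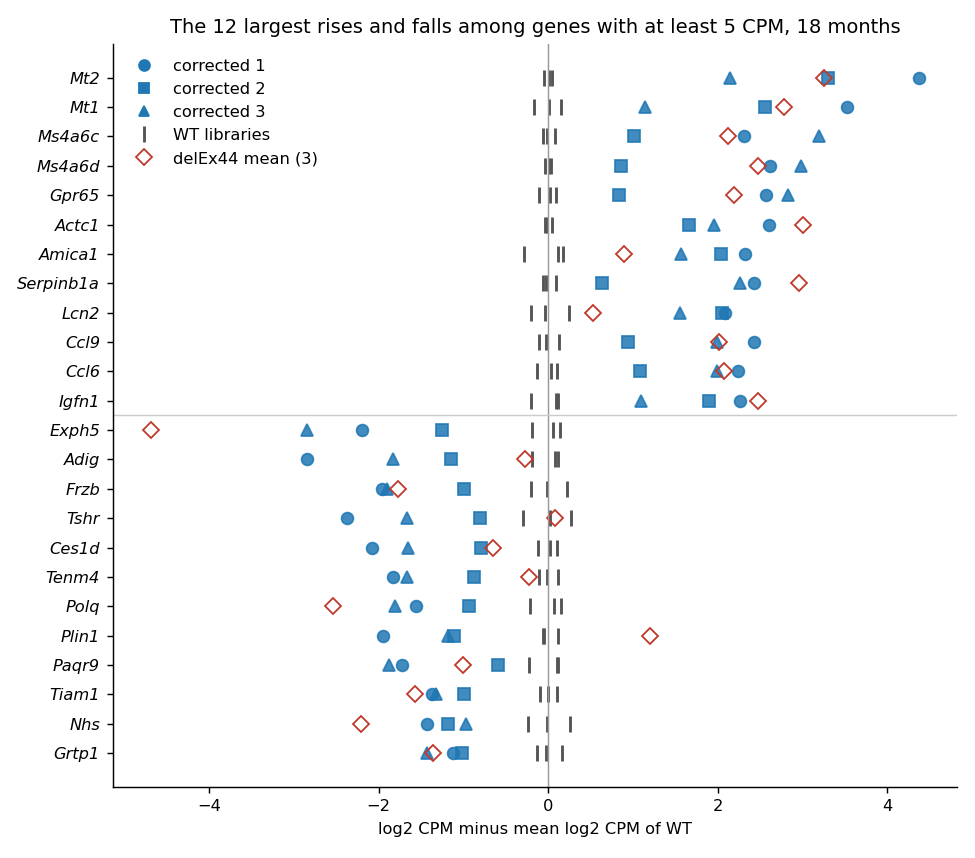
The 12 largest rises and 12 largest falls among genes with a mean of at least 5 CPM in corrected or WT muscle: log2 CPM minus the mean log2 CPM of WT (horizontal axis) in each corrected library (blue shapes) and each WT library (grey ticks), with the mean of 3 delEx44 libraries as an open diamond. Library 2, the square, is the nearest to WT in most of the leukocyte genes but not in Mt2, Lcn2 or Amica1.

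A set of 7 genes passed under each of the 12 alternatives tried, every single left-out library included, and was picked out after its values were seen. Xdh (chr17:73883895-73950196, minus strand) encodes xanthine dehydrogenase, the last enzyme of purine breakdown to uric acid. It was at 212, 194 and 225 CPM in corrected libraries 1, 2 and 3, at 109, 96.6 and 109 CPM in WT and at 109, 116 and 117 CPM in delEx44. The rise over WT was 1.00 ± 0.08 log2 (adjusted p = 0.00118), all 3 libraries were alike, and delEx44 was near WT (0.12, adjusted p = 0.2). Acer2 (chr4:86874396-86934822, plus strand), an alkaline ceramidase of the Golgi, rose by 0.95 ± 0.08 (adjusted p = 0.00183) to 33.4, 30.0 and 32.8 CPM, from 15.2 to 17.4 CPM in WT with 18.3 to 20.7 CPM in delEx44. Ly6c1 (chr15:75044018-75048830, minus strand), a surface antigen of endothelial cells and some leukocytes, rose by 0.66 ± 0.06 (adjusted p = 0.00256) to 86.2, 88.2 and 91.4 CPM, from 52.3 to 58.3 CPM. Ly6c1 has a near-identical neighbour, so its count is uncertain. Amica1 (annotated as Jaml, chr9:45079183-45108534, plus strand), a leukocyte adhesion molecule, rose by 1.98 ± 0.21 (adjusted p = 0.00568) to 7.22, 5.92 and 4.28 CPM, from 1.18 to 1.63 CPM in WT with 2.65 to 2.72 CPM in delEx44.

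The other 3 of the 7 fell. Kcnj2 (chr11:111066164-111076821, plus strand) encodes an inwardly rectifying potassium channel that sets the resting potential of the fibre. It was at 75.1, 81.2 and 93.7 CPM in corrected muscle, at 134 to 143 CPM in WT and at 105 to 115 CPM in delEx44 (-0.74 ± 0.08 against WT, adjusted p = 0.0059). Nav2 (chr7:48908716-49610090, plus strand), a cytoskeletal protein named neuron navigator 2, was at 14.6, 14.2 and 15.1 CPM against 23.9 to 27.8 CPM in WT and 31.3 to 34.9 CPM in delEx44 (-0.79 ± 0.08, adjusted p = 0.0052). Tiam1 (chr16:89787111-90143769, minus strand), an activator of the GTPase Rac1, was at 11.9, 15.4 and 12.2 CPM against 28.7 to 32.8 CPM in WT, with delEx44 at 9.81 to 11 CPM (-1.22 ± 0.11, adjusted p = 0.00183). In 6 of the 7, all but Tiam1, the corrected libraries lay outside all 6 WT and delEx44 libraries. Over all genes that pattern was seen in 2.52% above and 3.68% below, and 164 of the 683 called genes had it, 58 above and 106 below. With the 6 WT and corrected libraries alone the 7 had adjusted p-values from 0.027 to 0.0392. That fit is among the alternatives by which the 7 were picked, so values under 0.05 were fixed by the choice and are no further support.

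**Figure D3:**
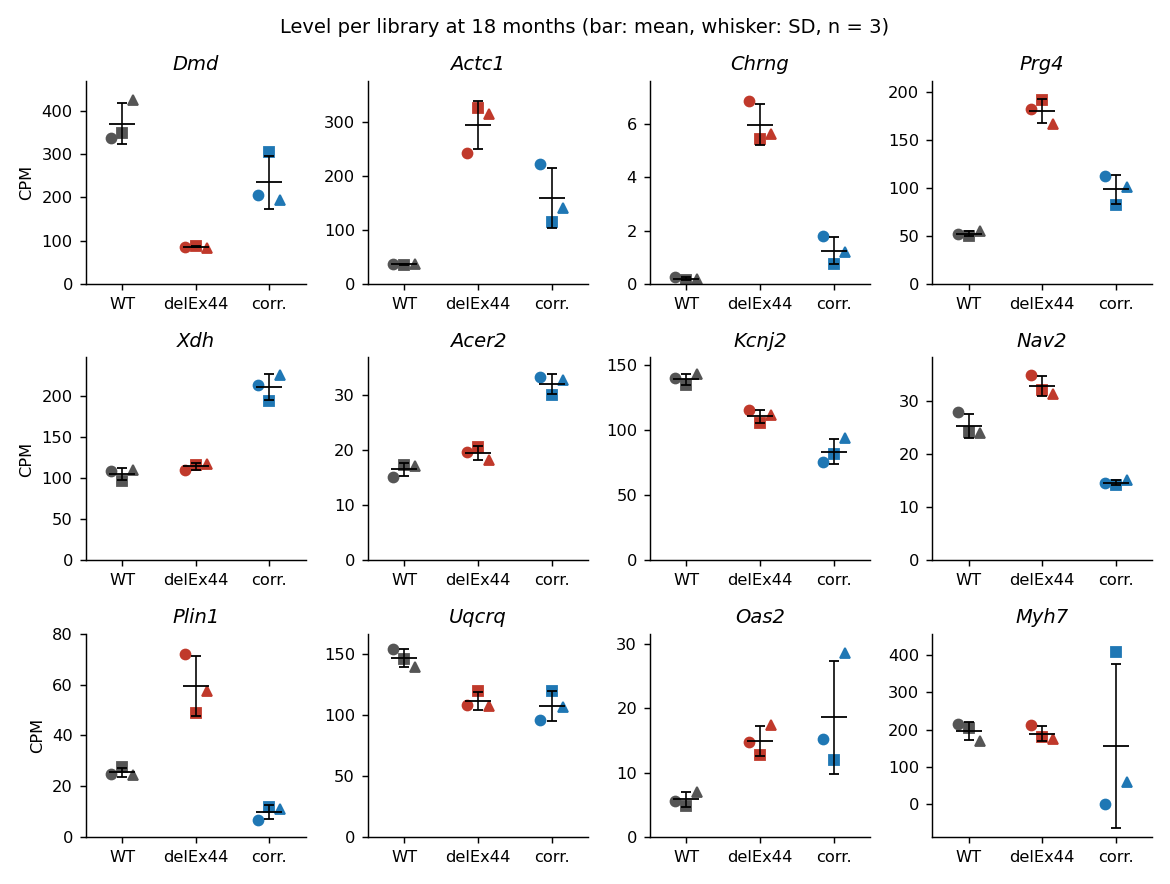
Level in CPM (vertical axis, linear) of 12 genes in each 18-month library, by group, with circles, squares and triangles for replicates 1, 2 and 3 and mean ± SD (n = 3). Xdh and Acer2 are high and Kcnj2, Nav2 and Plin1 low in corrected muscle relative to both other groups, and Myh7 is near 0 in corrected library 1.

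Of 21 genes of immature and regenerating fibres 10 (47.6%) rose and 0 fell in corrected muscle, against 2.34% and 2.43% over all genes. Their median was 0.59 log2, against 0.0121 over all genes tested. Without corrected library 2, 14 rose and 2 fell, where all genes gave 11.3% and 8.32%. The counts of the other lists are to be read against the same shares, and a single call in a list is no result about the list. Actc1 (chr2:114047282-114053548, minus strand), the cardiac alpha-actin that fetal and regenerating fibres also make, was at 222, 116 and 142 CPM in corrected libraries 1, 2 and 3, at 37.8, 35.5 and 36.2 CPM in WT and at 244 to 326 CPM in delEx44. It rose by 2.13 ± 0.23 log2 (adjusted p = 0.00979), and all corrected libraries lay between the other groups. Myl4, the embryonic myosin light chain, was at 19.1, 11.1 and 18.5 CPM against 4.75 to 5.07 CPM in WT and 61.6 to 79.5 CPM in delEx44 (1.71 ± 0.21, adjusted p = 0.00979). Myh8, the perinatal myosin heavy chain, was at 20.2, 15.0 and 19 CPM against 9.48 to 10.4 CPM in WT and 57.7 to 69.9 CPM in delEx44 (0.88 ± 0.12, adjusted p = 0.00979). Myh3, Tnnt2, Chrng, Igf2, Ankrd1, Peg3 and the fusion factor gene Mymk were the other members that rose.

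Genes of the neuromuscular junction, which denervated fibres switch on along their length, rose in 5 of 20 (25%), and 0 fell (median 0.35). Chrng (chr1:87204657-87212694, plus strand), the fetal gamma subunit of the acetylcholine receptor, had 46, 19 and 34 counts in corrected libraries 1, 2 and 3, 7, 4 and 4 counts in WT and 169 to 228 counts in delEx44. In CPM this was 1.78, 0.76 and 1.21 against 0.133 to 0.253 in WT, a rise of 2.69 ± 0.39 log2 (adjusted p = 0.0109). Runx1, a transcription factor of denervated and injured muscle, was at 37.0, 14.0 and 27.1 CPM against 8.07 to 8.71 CPM (1.63 ± 0.31, adjusted p = 0.036). Chrnd, the delta receptor subunit, was at 5.41, 5.00 and 4.5 CPM against 3.22 to 3.50 CPM in WT and 22.3 to 26.8 CPM in delEx44 (0.54 ± 0.12, adjusted p = 0.0384). Chrnb1 and Musk were the other members that rose. In the membrane repair list 2 of 12 rose, Ahnak (0.45, adjusted p = 0.0266) and the annexin gene Anxa1 (0.42, adjusted p = 0.0478). Of 12 satellite cell genes 1 rose, the chemokine receptor gene Cxcr4 (0.62, adjusted p = 0.0407), which other cells make too.

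The upstream sequence of Chrng is shown because MyoD and myogenin, which switch on this gene in developing muscle, bind E-boxes. The window is chr1:87205561-87205810 (RefSeq, GRCm38.p6, plus strand), the 250 bases before the RefSeq start, inside an intron of a longer annotated transcript, with the E-box CAGCTG in capitals (the same letters on both strands).
Chrng: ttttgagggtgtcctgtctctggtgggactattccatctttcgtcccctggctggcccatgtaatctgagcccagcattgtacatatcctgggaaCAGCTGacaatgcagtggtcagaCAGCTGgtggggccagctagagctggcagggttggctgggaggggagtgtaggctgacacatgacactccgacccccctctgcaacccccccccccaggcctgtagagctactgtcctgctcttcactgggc
It held 2 matches. CAGCTG was found upstream of 3 of the 12 called members of these lists that have a promoter sequence, and of 13.0% of all 32817 promoters.

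These calls depended on the libraries that entered and on the fit. Of the 9 genes given with a value here (Actc1, Myl4, Myh8, Chrng, Runx1, Chrnd, Cxcr4, Ahnak and Anxa1) none passed without WT replicate 2 (adjusted p from 0.0747 to 0.166), 1 passed without WT replicate 1, 5 without WT replicate 3, 4 without corrected library 1, 6 without library 3 and all 9 without library 2. A smaller group also weakens the test, so a lost call does not show that the left-out library decided it. With every WT and corrected library kept, 1 of the 9 (Myl4) passed in the fit of the 6 WT and corrected libraries alone. With the replicate block 4 passed, with limma-voom 5, and with DESeq2 or RLE size factors all 9.

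The mean level of leukocyte gene lists was high in corrected libraries 1 and 3 and near WT in library 2, although single genes, such as Ms4a6c, Ccl6 and Lcn2, were above all WT libraries in library 2 too. The mean log2 CPM of 27 macrophage genes was 1.27 and 1.91 above the WT mean in libraries 1 and 3 and 0.00467 above it in library 2, with delEx44 at 1.89. None of the 27 passed with all 3 libraries (median 1.29), 7 lay above all WT libraries in all 3 (12% of all genes did), and 23 rose without library 2. Lgals3, galectin 3 of activated macrophages, was at 49.4, 19.4 and 53.1 CPM against 12.2 to 15.8 CPM in WT (1.48, adjusted p = 0.0582). Ccr2, the receptor of inflammatory monocytes, was at 41.2, 17.2 and 66.1 CPM against 10.0 to 13.8 CPM (1.80, adjusted p = 0.0621), and Cd14 at 5.99, 4.52 and 10.9 CPM against 2.89 to 3.69 CPM (1.10, adjusted p = 0.0595). Ccr2 in libraries 1 and 3 was above the delEx44 range of 34.2 to 35.1 CPM. Complement (0 of 12 called, 11 higher without library 2) and antigen presentation (0 of 17, 13 without library 2) had list means in the same pattern. C3ar1, a complement receptor, was at 28.3, 10.5 and 51.6 CPM against 6.58 to 9.88 CPM (1.9, adjusted p = 0.0809), and B2m, the light chain of class I molecules, at 302, 237 and 503 CPM against 202 to 234 CPM (0.69, adjusted p = 0.131).

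Interferon-stimulated genes were highest in corrected library 3. Their mean log2 level was 1.05, 0.409 and 2.58 above WT in libraries 1, 2 and 3, with delEx44 at 1.34. Of 27 tested 18 lay above all WT libraries in all 3 corrected ones, 2 passed, and 19 passed without library 2. Oas2, which senses double-stranded RNA, was at 15.3, 12.0 and 28.6 CPM against 4.81 to 7.06 CPM in WT and 12.7 to 17.4 CPM in delEx44 (1.69 ± 0.33, adjusted p = 0.0351). Oasl1 was at 2.20, 1.20 and 5.71 CPM against 0.564 to 0.651 CPM (2.32 ± 0.52, adjusted p = 0.0439). The antiviral GTPase gene Mx1 was at 2.28, 1.08 and 6.99 CPM against 0.498 to 0.651 CPM, and did not pass (adjusted p = 0.0596). Library 3 was above every delEx44 library in these 3 genes.

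Chemokines and lymphocyte genes gave a few calls. Of 23 chemokine and receptor genes tested of 27, 6 rose and 0 fell: Ccl6, Ccl9, Ccl3, Cxcl14, Ccr1 and Cxcr4. Ccl3 had 14, 4 and 18 counts in corrected libraries and 1, 1 and 0 in WT, too few for a fold. Cxcl14, a chemokine of fibro-adipogenic cells, was at 101, 93.5 and 81.9 CPM against 52.6 to 61.1 CPM (0.69 ± 0.09, adjusted p = 0.00967), with little difference among the 3 libraries. Of 18 lymphocyte and natural killer cell genes tested of 22, 2 rose, Ms4a4b (2.22, adjusted p = 0.0428) and Klrd1 (1.26, adjusted p = 0.0429), both under 3 CPM in every corrected library. Of 7 neutrophil genes tested of 12, 1 rose, Lcn2. Of the 7 called genes given for leukocytes (Oas2, Oasl1, Cxcl14, Ccl6, Ms4a4b, Klrd1 and Lcn2) none passed without WT replicate 2 (adjusted p from 0.0726 to 0.162), 2 passed without each of WT replicate 1, WT replicate 3 and corrected library 1, 5 without library 3, and all 7 without library 2.

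**Figure D4:**
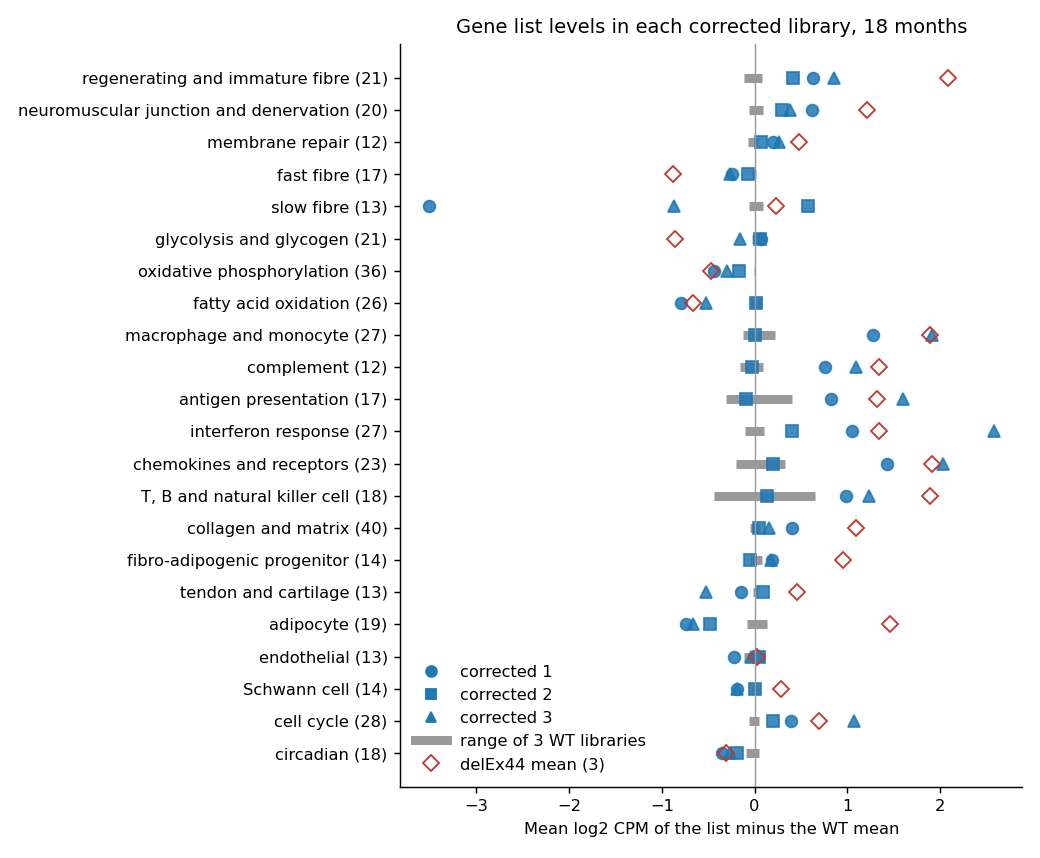
Mean log2 CPM of each gene list minus its WT mean (horizontal axis) in corrected libraries 1, 2 and 3 (blue shapes), with the range of the WT libraries (grey bar) and the delEx44 mean (open diamond); the number of genes tested is in brackets. Library 2 lies near 0 for the macrophage list, and library 1 lies at -3.51 for slow fibre genes. All 3 corrected libraries lie below the WT range for adipocyte, oxidative phosphorylation and circadian genes, by unequal amounts.

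Of 36 genes of oxidative phosphorylation 11 (30.6%) fell and 0 rose, against 2.43% and 2.34% over all genes (median -0.29 log2), and 34 of the 36 lay below all WT libraries in all 3 corrected libraries, a pattern of 12.9% of all genes. Their mean log2 level differed from WT by -0.436, -0.168 and -0.294 in libraries 1, 2 and 3, and the delEx44 mean by -0.468. Uqcrq, a subunit of complex III, was at 95.3, 120 and 107 CPM against 139 to 154 CPM in WT and 107 to 119 CPM in delEx44 (-0.45 ± 0.09, adjusted p = 0.0284). Ndufb8 of complex I was at 280, 321 and 294 CPM against 366 to 379 CPM (-0.32 ± 0.07, adjusted p = 0.0326), and Cox8b of complex IV at 118, 146 and 127 CPM against 169 to 174 CPM (-0.39 ± 0.09, adjusted p = 0.0385). Cox5b, Atp5g1, Ndufa9, Cox7a1, Uqcrc2, Sdhd, Uqcrc1 and Ndufa4 were the other members that fell. Without corrected library 2, 33 of the 36 fell, where 8.32% of all genes did.

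Of 26 genes of fatty acid oxidation 17 lay below all WT libraries in all 3 corrected libraries, against 12.9% of all genes. Their mean log2 level differed from WT by -0.791, 0.020 and -0.524 in libraries 1, 2 and 3, and 1 fell with all libraries (22 without library 2). That gene was Etfb, a subunit of the electron transfer flavoprotein, at 110, 161 and 136 CPM against 186 to 195 CPM (-0.48 ± 0.11, adjusted p = 0.0445). The carnitine transferase genes Cpt1b (-0.51, adjusted p = 0.0557) and Cpt2 (-0.51, adjusted p = 0.0593) did not pass. Of 21 genes of glycolysis and glycogen none passed (median -0.01), while 19 fell in delEx44.

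Slow fibre genes differed among the corrected libraries themselves. Which part of the quadriceps was taken from each mouse is not in the labels, and its part in these levels was not tested. Myh7, the slow myosin heavy chain, was at 0.811, 406 and 60.1 CPM in corrected libraries 1, 2 and 3, at 214, 203 and 168 CPM in WT and at 212, 180 and 176 CPM in delEx44. Myl2, the slow light chain, was at 1.89, 235 and 67.3 CPM against 135 to 146 CPM in WT, and Tnnt1, slow troponin T, at 3.82, 157 and 35.3 CPM against 88.0 to 105 CPM. These 3 were singled out after their values were seen. Over the 13 slow fibre genes the level differed from WT by -3.51, 0.579 and -0.865 in libraries 1, 2 and 3. None of the 13 passed with all libraries, and 5 fell without corrected library 2 (38.5%, against 8.32% of all genes). The part of slow fibre content in the oxidative results was not tested.

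Fast fibre genes gave 2 calls. Of 17 tested 2 fell and 0 rose (median -0.07), while 13 fell in delEx44. Myh4, the main fast myosin, was at 53011, 51924 and 47969 CPM against 48517 to 56689 CPM in WT, overlapping it, and at 12083 to 17561 CPM in delEx44. Myh1, the IIx myosin, was at 4578, 5878 and 5588 CPM against 7260 to 8033 CPM in WT and 6860 to 7944 CPM in delEx44 (-0.49 ± 0.11, adjusted p = 0.0364). Mylk2, the kinase of the fast light chain, was at -0.46 (adjusted p = 0.0595). Cacna1s, the voltage sensor of the calcium release unit, was at -0.28 (adjusted p = 0.051), and 0 of 18 calcium handling genes passed. Of the 5 called genes given with values for metabolism and fibre type (Uqcrq, Ndufb8, Cox8b, Etfb and Myh1) none passed without any 1 of WT replicates 1, 2 and 3 or corrected libraries 1 and 3 (adjusted p from 0.053 to 0.144), and all 5 passed without library 2.

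Of 19 fat cell genes tested of 20, 5 (26.3%) fell and 0 rose in corrected muscle, against 2.43% and 2.34% over all genes (median -0.50). In delEx44 17 of the 19 rose, against 28.8% of all genes (median 1.40), and 18 of 19 were lower in corrected than in delEx44 muscle. Plin1 (chr7:79720218-79732903, minus strand) was at 6.6, 11.8 and 11.2 CPM in corrected libraries 1, 2 and 3, at 24.6, 27.6 and 24.4 CPM in WT and at 72.2, 48.9 and 57.7 CPM in delEx44 (-1.37 ± 0.22 against WT, adjusted p = 0.0218). Acvr1c, the activin receptor ALK7 of fat cells, was at 2.7, 3.92 and 3.57 CPM against 5.86 to 7.84 CPM (-1.03 ± 0.18, adjusted p = 0.0217). Lipe, hormone-sensitive lipase, was at 32.4, 41.8 and 35.7 CPM against 49.9 to 51.6 CPM in WT and 85.4 to 97.3 CPM in delEx44 (-0.47 ± 0.09, adjusted p = 0.0284). Retn and Pparg were the other members that fell. Adipoq, the fat cell hormone adiponectin, was at 28.7, 53 and 33.3 CPM against 63.9 to 75.2 CPM and did not pass (-0.87, adjusted p = 0.0578). Fat dissected along with each muscle was not recorded in the labels, and its part was not tested.

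Of 40 collagen and matrix genes 1 rose and 1 fell (2.5% each way, median 0.09), a share near the 2.34% and 2.43% over all genes. In delEx44 36 of the 40 rose, and 35 were lower in corrected than in delEx44 muscle. Timp1, an inhibitor of matrix metalloproteinases, had 133, 59 and 102 counts in corrected libraries, 13, 15 and 18 counts in WT and 305 to 389 counts in delEx44 (2.65 ± 0.32 log2, adjusted p = 0.00914). Col15a1, a collagen of basement membranes, was at 51.7, 54.4 and 57.8 CPM against 64.4 to 70.7 CPM in WT and 74.0 to 87.1 CPM in delEx44 (-0.33 ± 0.08, adjusted p = 0.0436). Bgn, the proteoglycan biglycan, was at 0.36 (adjusted p = 0.0696). Col1a1 was at 154, 111 and 111 CPM against 106 to 132 CPM (0.08, adjusted p = 0.743). Of 13 tendon and cartilage genes tested of 15, 1 rose: Prg4 (chr1:150449412-150466165, minus strand), the lubricant proteoglycan 4, at 112, 82.5 and 101 CPM against 49.8 to 55.6 CPM in WT and 167 to 191 CPM in delEx44 (0.91 ± 0.11, adjusted p = 0.00775). Prg4 went against most of its list, in which 3 of the 13 had a positive log2 fold change (median -0.27).

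Markers of stromal and vascular cells gave 3 calls. Of 14 genes of fibro-adipogenic progenitors, the stromal cells that give rise to fibroblasts and fat cells in muscle, 2 rose, Cxcl14 and Ly6a. Only 6 of the 14 had a positive log2 fold change (median -0.04), so the list as a whole did not rise. Ly6a, the surface antigen Sca-1, was at 147, 96.6 and 177 CPM against 72.0 to 76.0 CPM in WT and 129 to 151 CPM in delEx44 (0.91 ± 0.19, adjusted p = 0.0363). Endothelial and interferon-stimulated cells also make Ly6a. Pdgfra, the defining receptor of the progenitors, was at 0.32 (adjusted p = 0.0847). Of 13 endothelial genes 1 rose, Flt1, a receptor of vascular endothelial growth factor, at 169, 185 and 162 CPM against 143 to 145 CPM in WT and 92.7 to 96.0 CPM in delEx44 (0.26 ± 0.06, adjusted p = 0.0445). In the endothelial list 4 of the 13 had a positive log2 fold change (median -0.06). None of 10 smooth muscle and pericyte genes or 14 Schwann cell genes passed. Of the 9 called genes in the account of fat, matrix and stroma (Plin1, Acvr1c, Lipe, Timp1, Col15a1, Prg4, Cxcl14, Ly6a and Flt1) none passed without WT replicate 2 (adjusted p from 0.0726 to 0.16), 3 passed without WT replicate 1, 3 without WT replicate 3, 4 without corrected library 1, 7 without library 3 and all 9 without library 2.

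Fkbp5 and 4 circadian genes changed in corrected muscle. Fkbp5, the glucocorticoid-induced partner of Hsp90, was at 243, 309 and 171 CPM in corrected libraries 1, 2 and 3, at 94.4, 82.4 and 126 CPM in WT and at 87.4 to 124 CPM in delEx44 (1.26 ± 0.25, adjusted p = 0.0373). Library 2 was the highest here. Of 21 atrophy and proteolysis genes 3 rose, Mt2, Mt1 and Fkbp5, and 1 fell, the calpain gene Capn3 (-0.25, adjusted p = 0.0432). The defining ubiquitin ligase genes of that list, Fbxo32 and Trim63, were not among them. Of 18 circadian genes 4 fell and 0 rose (median -0.17), among them Ciart (-0.92, adjusted p = 0.0284), Bhlhe41 (-0.51, adjusted p = 0.0309) and Nr1d1. The labels give no time of day at harvest, and its part was not tested.

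Cell cycle genes gave 3 rises and 1 fall of 28. Rrm2, a subunit of ribonucleotide reductase, was at 3.28, 2.44 and 5.35 CPM against 1.26 to 1.75 CPM in WT (1.30 ± 0.27, adjusted p = 0.0318), and cyclin A2, Ccna2, at 2.36, 1.56 and 4.17 CPM against 0.805 to 1.12 CPM (1.53 ± 0.33, adjusted p = 0.0363). Cenpf was the other rise. Tpx2, a spindle assembly factor, went the other way, at 6.29, 8.64 and 6.35 CPM against 14.2 to 17.0 CPM in WT and 2.60 to 3.46 CPM in delEx44 (-1.13 ± 0.15, adjusted p = 0.00979). Of 17 p53 and senescence genes tested of 18, 1 rose, the death receptor gene Fas, at 20.0, 20.1 and 17.3 CPM against 10.7 to 15.3 CPM in WT and 13.2 to 14.0 CPM in delEx44 (0.60 ± 0.13, adjusted p = 0.0326). Cdkn2a, a marker of senescence, had 71, 4 and 74 counts in corrected libraries 1, 2 and 3, 1, 0 and 3 counts in WT and 263 to 312 counts in delEx44, and did not pass (adjusted p = 0.0581). Cdkn1a, encoding p21, was at 53.8, 66.0 and 34.2 CPM against 25.9 to 33.1 CPM (0.83, adjusted p = 0.0738). Of 16 genes of the integrated stress response tested of 18, 1 rose, the mitochondrial folate enzyme gene Mthfd2 (0.69, adjusted p = 0.0318). In that list 6 of the 16 had a positive log2 fold change (median -0.18). Of 11 genes that are low in young delEx44 muscle, a list chosen on these samples, 1 fell, Ces1d, and the cadherin gene Cdh4 was at -0.90 (adjusted p = 0.0514). None of 18 immediate early genes, 3 red cell genes tested of 7, 2 skin genes tested of 7 or 4 sex-linked genes tested of 5 passed.

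Of the 11 called genes tracked in the account of stress, clock and cell cycle (Mt2, Fkbp5, Capn3, Ciart, Bhlhe41, Tpx2, Rrm2, Ccna2, Fas, Mthfd2 and Ces1d), none passed without WT replicate 2 (adjusted p from 0.0726 to 0.17), 1 passed without WT replicate 1, 4 without WT replicate 3, 3 without corrected library 1, 6 without library 3 and all 11 without library 2.

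At 4 weeks, corrected and WT muscle gave no call with edgeR. Of 14937 genes 0 (0%) passed with edgeR, 1389 had an unadjusted p under 0.05, and DESeq2 called 47. The edgeR fit took the spread from all 18 sedentary libraries. These include the corrected libraries of 18 months, which were 0.471 to 0.631 log2 apart. A count of 0 therefore does not show that corrected and WT muscle were alike at 4 weeks. The 4-week corrected mice had received 8e13 vg/kg of each vector with a self-complementary guide vector (scAAV9-sgRNA), so age, dose, vector type and count table cannot be told apart. In those libraries, which the 18-month comparison did not use, 186 of the 335 genes higher at 18 months had a positive log2 fold change (55.5%, against 43% of all genes), and 216 of the 348 lower genes had a negative one (62.1%, against 56.9%). Their medians at 4 weeks were 0.0308 and -0.0387, against 0.711 and -0.505 at 18 months. An unadjusted p under 0.05 in the same direction was seen for 43 of the 335 and 28 of the 348. The share of all genes with such a p in a given direction was not computed. These counts are therefore no result about the called genes.

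The difference between ages was tested directly. The corrected against WT difference changed with age for 74 of 14937 genes (0.495%), 39 (0.261%) upward and 35 (0.234%) downward. This test uses the same 18-month libraries as the 683 calls, so no overlap with them is drawn. Actc1 was at 7485 ± 687 CPM in WT and 7503 ± 514 CPM in corrected muscle at 4 weeks (SD, n = 3), and the change with age of the difference was 2.13 ± 0.28 log2 (edgeR adjusted p = 0.0128). Osmr, the oncostatin M receptor, was at 19.1 ± 0.57 and 18.9 ± 1.30 CPM at 4 weeks and at 30.9 to 38.5 CPM in WT and 54.7 to 79.1 CPM in corrected muscle at 18 months (0.96 ± 0.15, adjusted p = 0.0277). Kcnj2 changed with age too (-1.22 ± 0.22, adjusted p = 0.0318). The count of 74 became 0 without corrected library 1 of 4 weeks or without WT replicate 1 or 2 of 18 months, 7 without corrected library 1 of 18 months, and 858 without corrected library 2 of 18 months. Without corrected library 3 or WT replicate 3 of 18 months it was 136 and 122, without WT replicates 1, 2 and 3 of 4 weeks it was 114, 14 and 4, and without corrected libraries 2 and 3 of 4 weeks 23 and 25. In the settings that gave 0, none of the 10 genes named by the rule for this test passed (adjusted p up to 0.0969).

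**Figure D5:**
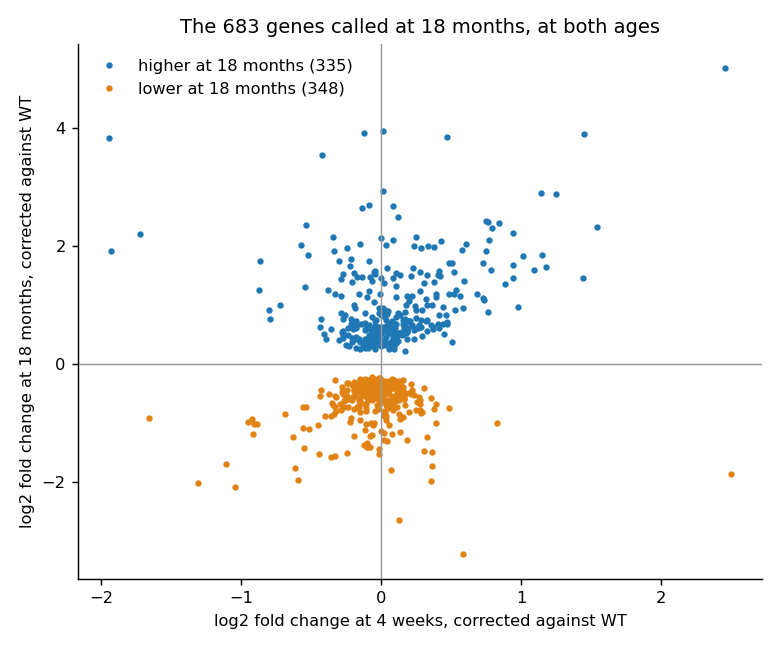
Log2 fold change of corrected against WT at 4 weeks (horizontal axis) and at 18 months (vertical axis) for the 683 genes called at 18 months; blue points are the 335 higher and orange points the 348 lower genes. The medians at 4 weeks are 0.0308 and -0.0387. Since the genes were chosen at 18 months, the gap around 0 on the vertical axis is fixed by the choice.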

How the data were processed

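Raw read counts per gene, whole numbers without normalization, were deposited by the authors in 2 tables, of which the 18-month table holds the 9 libraries used here and the other the 4-week libraries. The submitters' processing notes name edgeR, HTSeq, Trim Galore, STAR 2.7.2b, Bowtie2 2.3.4.3 and SAMtools 1.9, and the mm10 genome. Not given in the sources used here were the annotation, the strand setting and the aligner behind the counts, so overlapping genes and near-identical copies (Mt1 and Mt2, Ms4a6c and Ms4a6d, Ly6c1, Ces1d, Ccl6 and Ccl9 among those named) are uncertain. The 5 records that name no gene, 42.2% to 48.3% per 18-month library (44.0% to 48.3% in WT, 42.4% to 44.4% in corrected), were left out, as were 6 columns of other groups. Columns WT-1 and WT-2 of the 18-month table were matched to their group and not to a sample, since 2 WT libraries of the run group bear the same names. Separate libraries are taken as replicates, and p-values measure the spread between them.

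edgeR 4.0.16 (R 4.3.3) was used with filterByExpr, TMM, robust quasi-likelihood fitting and 1 mean per group, on all 9 libraries at 18 months and on 18 sedentary libraries for 4 weeks and for the change with age. P-values were adjusted by the Benjamini-Hochberg method over all genes, with a threshold of 0.05, and rose or fell is used for genes past it. The ± after a log2 value is its standard error. Levels are CPM with TMM factors, and list levels are means of log2 CPM (prior count 2) over the genes of a list. Simulated data held 200 changed genes, all above a mean of 5 CPM, with 14167 genes tested for corrected against WT at 18 months. The fit recovered 54.4% of changes of 0.5 log2, 98.5% of 1 and 100% of 2. For the change with age it recovered 17.5%, 87.5% and 100%. All groups were simulated with 1 shared trend of spread, without the wider spread between corrected libraries. These shares therefore do not give the recovery in the real data, which may be lower. The genes named were the 12 largest rises and 12 largest falls with a mean of at least 5 CPM in corrected or WT muscle and no overlap, the 3 smallest p of each list, Dmd, Utrn and the 5 smallest p in each direction for age. Of 683 called genes 31 were predicted genes or unnamed identifiers and were not named, and a few other genes that the rule picks are not reported here. The members, the 35 lists (625 genes, all found, 10 under another symbol) and the alternatives were chosen with earlier results of these data known. Positions come from GENCODE vM21 (GRCm38), where all 94 named symbols matched once, and promoters from RefSeq (GRCm38.p6). Alternatives were RLE size factors, no filter, DESeq2 1.42.0, limma-voom (limma 3.58.1), a replicate block, the 6 WT and corrected libraries alone, and each library left out in turn.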

Additional observations from a re-analysis of the deposited data

Results flagged for a closer look

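The corrected against WT difference at 18 months and that at 4 weeks were compared by an interaction term in edgeR, and 74 genes differed between the ages. The 5 smallest p-values upward were those of Actc1 (2.13 log2), Rai14 (0.77), Osmr (0.96), Mettl21e (1.6) and Rab27b (2.04). The 5 downward were Slc6a6 (-0.71), Adamts16 (-3.82), Ksr1 (-0.71), Ube2h (-0.46) and Gpr155 (-0.51). Adamts16 rests on 1, 1 and 3 counts in the corrected libraries at 18 months against 16, 29 and 6 in WT, so its size is imprecise. Mettl21e, a methyltransferase gene, was at 12.5, 9.80 and 14.0 CPM in corrected libraries 1, 2 and 3 at 18 months, above all WT (3.65 to 5.08 CPM) and delEx44 (4.49 to 6.75 CPM) libraries. Slc6a6, the taurine transporter gene, was at 162, 163 and 182 CPM, below all WT (214 to 238 CPM) and delEx44 (216 to 245 CPM) libraries. Age, vector dose, vector type and count table cannot be told apart in this comparison.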

How the results depend on the processing

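The 683 genes called between corrected and WT muscle at 18 months became 673 with RLE size factors, 656 with no filter on low counts, 498 with limma-voom, 1638 with DESeq2 and 16 with the 6 libraries of these groups alone. With the replicate block they became 252; same-numbered libraries correlated at -0.138 to 0.0867 and others at -0.206 to 0.175, not every library correlated best with its own number, and the numbers were not taken as pairs. Leaving out 1 library gave 9 to 2859 genes at 18 months, 0 to 3 at 4 weeks and 0 to 858 for the change with age. DESeq2 called 47 genes at 4 weeks and 471 for the change with age. No paired analysis was possible for the 4-week and age comparisons because their labels share no replicate numbers. The positions of the 3 corrected libraries stayed within 1 SD (18.9 percentage points) in all 18 values, 6 alternatives for each of 3 libraries. Of 64 called genes named for corrected against WT, 0 changed sign in an alternative, 7 kept the call in all 12, and the most sensitive lost it in 9. At a depth of 23.1 to 31.3 M (mega-counts), genes with a few counts per library (Ccl3, Cdkn2a, Adamts16) have imprecise sizes.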
